A study of Mus musculus with 8 samples.

Results

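The expression table of B16-OVA cells, a mouse melanoma line (B16F10) that expresses ovalbumin as a model antigen, contains 1937 rows that carry an assembly number (XLOC) in place of a gene identifier. These assembled loci are stretches of the genome to which RNA reads mapped where the annotation used for the table had no gene. They were chosen by that identifier alone, with earlier results of these data known. They are 1937 of 57353 rows, beside 53924 rows with a gene symbol. The study compared 2 groups of 4 libraries each, and all cells were labelled wild type and collected at 6 h. Control cells were left untreated. HMF cells were first incubated for 24 h with MagRMs, which are magnetic rod-shaped micromotors, and were then exposed to a magnetic field of high frequency. Micromotors and field were given together in the HMF group, so their separate parts cannot be told apart. No label tells whether separate cultures were used for the replicates. The p-values thus rest on the variation among the libraries at hand, and this variation may be technical.

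An assembled locus arises when reads outside all annotated genes are joined into a transcript model. Such models are known to include unannotated long noncoding RNAs, extended ends of known genes, antisense and divergent transcripts that start near a gene, transcribed repeats such as endogenous retroviruses, and fragments of incompletely placed sequence. Interferon, which B16 cells can sense through their own receptors, is known to switch on genes through promoter elements built from repeated GAAA motifs.

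The nearest genes of the loci that rose were matched to the RefSeq promoter table (GRCm38.p6), which spans 250 bases before to 50 bases after each gene start, and 22 of 34 such genes within 10 kb had an entry. The 2 promoters below are shown because they belong to genes that rose together with the assembled locus next to them, and because they alone among these entries hold, on either strand, GAAA followed by any 2 bases and a second GAAA, which is an interferon-type element. It is marked here in capitals, and in both promoters it reads on the other strand, as TTTC, any 2 bases and TTTC. The first is chr7:104315446-104315745 and the second chr4:154928028-154928327, both read 5′ to 3′ along the minus strand of GRCm38.p6.

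Trim12a: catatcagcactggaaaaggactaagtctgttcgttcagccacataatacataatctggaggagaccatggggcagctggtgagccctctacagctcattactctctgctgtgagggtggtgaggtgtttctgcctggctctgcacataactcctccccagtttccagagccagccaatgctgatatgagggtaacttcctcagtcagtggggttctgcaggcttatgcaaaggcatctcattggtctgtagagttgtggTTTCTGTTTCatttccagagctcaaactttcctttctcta

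Tnfrsf14: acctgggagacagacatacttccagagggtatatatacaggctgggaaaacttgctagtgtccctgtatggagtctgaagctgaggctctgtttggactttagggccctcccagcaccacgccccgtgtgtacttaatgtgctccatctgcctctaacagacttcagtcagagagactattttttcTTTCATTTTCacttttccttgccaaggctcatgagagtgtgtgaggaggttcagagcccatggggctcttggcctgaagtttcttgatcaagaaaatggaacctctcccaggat

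The capitals begin 11 bases into the gene in Trim12a and 64 bases before the start in Tnfrsf14 (position -64). Of all 32851 promoters in the table, 1131 (3.44%) held these letters. They were in 2 of 25 promoters of the nearest genes of loci that rose, in 0 of 30 promoters of the nearest genes of loci that fell, and in 5 of 254 promoters (1.97%) of the nearest genes of all tested loci. Nmi, an interferon-induced gene beside a locus that rose, did not have these letters in this window.

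The 1937 loci were mostly short, single stretches of sequence. The deposited FPKM values, which are counts scaled by exon length and by the counted reads of the library, gave the exonic length of each row. In 1538 loci the exonic length equalled the whole span, and these are called loci of 1 interval here. In 366 loci it was shorter than the span by any amount, and these are called spliced. The other 33 had no read from which a length could be taken. Both names rest on length alone. A small gap thus counts as splicing, and spliced forms in a model that fills its span would not be seen. Exonic lengths ran from 203 to 17407 bases with a median of 969. The strand was unknown for 1471 loci. Of the 1917 loci that share a chromosome or scaffold with a gene carrying a symbol, 1 overlapped such a gene in the table's own coordinates, and the median distance to the nearest one was 13495 bases. Within 10 kb of a gene lay 813 loci (42.4%), and 157 (8.19%) lay within 1 kb. On 11 scaffolds that are not placed on a chromosome lay 24 of the 1937 loci, 4 of which share their scaffold with a gene carrying a symbol.

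Coordinates are printed as the table gives them. The submitters' processing notes name mm10, the browser name of GRCm38, but only 1511 (2.90%) of the 52096 identifiers found in both the table and a GRCm38 annotation had the same start, while 98.9% had the same span. Scaffolds with loci include MU069434.1, MU069435.1 and GL456233.2, names used in GRCm39. Placed on a GRCm38 annotation at the table's positions, 754 loci (38.9%) would overlap a gene. The locus positions are therefore not GRCm38 positions, and they must not be mixed with the promoter coordinates given above.

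Total counts were 13973961 to 19295358 per library, and TMM scaling factors ran from 0.97 to 1.03. Assembled loci took 1.29%, 1.36%, 1.07% and 1.12% of the counts in the Control libraries and 1.03%, 1.03%, 1.01% and 1.21% in the HMF libraries. The ranges of the 2 groups overlapped. Without the 5 most abundant loci they did not, with 0.593% to 0.660% in Control and 0.555% to 0.586% in HMF. The mean share was 1.21% ± 0.137 (SD, n = 4) in Control and 1.07% ± 0.0921 (SD, n = 4) in HMF, a difference of -0.14 percentage points (two-sided exact permutation test, p = 0.171, where 0.0286 is the smallest p this design allows). Without the 5 most abundant loci the difference was -0.0444 points (two-sided exact permutation test, p = 0.0286). Markers of melanocytes were high in all libraries (Tyr 229 to 646 CPM and Dct at least 5270 CPM), and all 3 T cell markers (Cd3e, Cd3d and Cd8a) and all 3 keratinocyte markers (Krt5, Krt14 and Krt10) were at 0 in all of them. Of 4 macrophage markers, Adgre1 was at 0, Csf1r and Ptprc were at most 0.273 and 0.137 CPM, and Cd68 was at 6.49 to 9.93 CPM in Control and 12.9 to 14.3 CPM in HMF. Of 4 fibroblast markers, Col1a1 was at 3.41 to 8.44 and 2.94 to 3.90 CPM, Pdgfra at 0.843 to 2.12 and 0.587 to 1.20 CPM, and Col3a1 and Dcn were at most 0.16 and 0.295 CPM. The part of these markers in the results was not tested. CPM here are counts relative to the TMM-scaled library size.

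Of the 1937 loci, 1047 (54.1%) had 10 or more counts in at least 4 of the 8 libraries and were tested. Of the other 890 loci, 33 had no read and 857 had a median mean count of 3.5. The highest mean count among loci left out was 11.6 and the lowest among tested loci was 7.75. Tested loci had a median exonic length of 2365 bases and a median level of 0.923 FPKM, against 4053 bases and 5.83 FPKM for the 14213 tested rows with a gene symbol. 5 loci passed only through the HMF libraries and 3 only through the Control libraries. A difference in raw counts was thus built in for these 8, and 7 of them were called. They are XLOC_022663, XLOC_011646, XLOC_027764, XLOC_051757 and XLOC_054438, which were higher in HMF, and XLOC_025705 and XLOC_009158, which were lower, while XLOC_006137 was not called.

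A minority of the assembled loci changed. At an adjusted p below 0.05 (edgeR's quasi-likelihood test, Benjamini-Hochberg over all 15273 rows tested), 122 of 1047 tested loci (11.7%) changed, beside 26.4% of all rows tested. Of these, 51 rose in HMF (4.87%, against 13.6% of all rows) and 71 fell (6.78%, against 12.8% of all rows). A change of at least 2-fold was called in 4.11% of tested loci against 5.6% of all rows. These were 27 rises (2.58%, against 3.33% of all rows) and 16 falls (1.53%, against 2.27% of all rows). The 4 HMF and 4 Control values did not overlap in 182 loci (17.4%) and in 28.8% of all rows. The median log2 fold change was -0.20 over all tested loci and -0.02 over all rows, and 25.8% of loci lay above 0 against 47.8% of all rows. Without scaling beyond library size, on log2(FPKM + 1) with limma, the split was 47 rises and 117 falls. Leaving out HMF 2 reduced the count of changed loci to 79 and of falls to 37, and without Control 2, Control 3, Control 4 or HMF 3 the falls were 46, 41, 44 and 46. Which direction had more calls was not stable, since rises outnumbered falls when Control 1, Control 2, Control 3, HMF 2 or HMF 3 was left out.

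**Figure D1:**
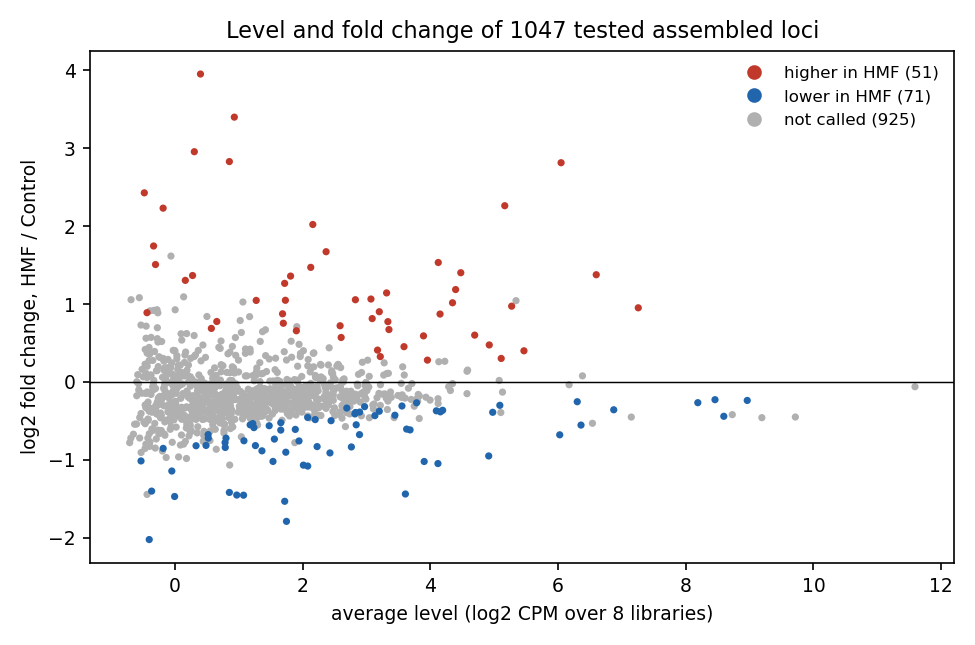
Log2 fold change of HMF over Control (vertical axis) against the average level in log2 CPM over 8 libraries (horizontal axis) for the 1047 tested assembled loci, 1 point each, coloured by the edgeR call. Rises (51) reach higher fold changes than falls (71), and most uncalled points lie slightly below 0, with a median over all points of -0.20.

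The share of loci that changed went up with their level, as it did for rows with a symbol. Among loci with an average log2 CPM below 0, 5.5% changed, and among those at 5 or more, 57.1% changed (7 rises and 9 falls of 28). Rows with a symbol went from 7.79% to 33.6% over the same range. As counts without a test, spliced loci changed more often than loci of 1 interval, with 24 rises and 30 falls of 261 (20.7%) against 27 rises and 41 falls of 786 (8.65%). Their median counts were 40 and 28.5 per library, and the part of depth in this gap was not tested. Loci of 1 interval with an assigned strand gave 12 rises and 3 falls of 68, and those without one gave 15 rises and 38 falls of 718. Over all rows tested, 13.6% rose and 12.8% fell. The median exonic lengths of these loci were 4910.5 bases with a strand and 2370 bases without one. Of the 12 rises, 7 are the loci of 8 to 9 kb described below. The parts of strand and length were not tested.

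The largest rise among loci with 10 or more CPM in Control was beside the class I region of the major histocompatibility complex. XLOC_020918 is a spliced locus on the plus strand of chr17:36413148-36418208, 1918 bases downstream of H2-T-ps, a class I pseudogene. It measured 16.1, 18.9, 15.3 and 15.6 CPM in the Control libraries and 106, 112, 106 and 139 CPM in the HMF libraries. All HMF values were several times the highest Control value. The means were 16.5 ± 1.68 and 116 ± 15.7 CPM (SD, n = 4 each), a log2 fold change of 2.81 ± 0.11 (SE; edgeR adjusted p = 1.82e-08). H2-T-ps itself had too few counts to be tested (means of 0.264 and 0.665 CPM). Class I genes and pseudogenes of this region are near copies of one another, and how reads that map to several places were counted is not given in the sources used here, so the origin of these reads is uncertain.

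Next to Trim12a, the gene whose promoter is printed above and a member of the TRIM family of antiviral proteins, lies XLOC_043165. This locus runs on the plus strand of chr7:103942254-103949098 and ends 3 bases from the downstream end of the gene, which is on the opposite strand. Its exonic length of 6803 bases is little below its span of 6845 bases, so it counts as spliced only by a small gap. It measured 11.7, 11, 12.4 and 14.2 CPM in Control and 58.1, 51.7, 62.1 and 65.2 CPM in HMF, with no overlap. The log2 fold change was 2.26 ± 0.10 (edgeR adjusted p = 5.32e-08). Trim12a rose by nearly the same factor, from 32.1 ± 4.86 to 137 ± 15.2 CPM (log2 fold change 2.09 ± 0.11). The ratio of locus to gene did not pass the test (difference 0.17 ± 0.16 on the log2 scale, limma adjusted p = 0.526). Whether reads were counted by strand is not given in the sources used here, so reads from a gene and from a neighbour on the other strand may not have been kept apart where models touch.

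A similar pair was found at Tnfrsf14, which encodes a receptor for the cytokine LIGHT and a ligand for the inhibitory receptor BTLA. XLOC_033612, on the plus strand of chr4:155002915-155006330 and 60 bases from the downstream end of the gene, measured 9.32, 8.65, 9.75 and 7.92 CPM in Control and 25.4, 27.6, 26.6 and 23.7 CPM in HMF. Its log2 fold change of 1.53 ± 0.10 (edgeR adjusted p = 8.04e-07) equalled that of the gene, 1.53 ± 0.20. The difference between them, -0.04 ± 0.23, did not pass the test (limma adjusted p = 0.924). At Nmi, an interferon-induced partner of STAT proteins, XLOC_029168 (chr2:51832441-51836299, 2200 bases downstream, strand unknown) measured 2.60, 2.13, 2.68 and 2.25 CPM in Control and 8.14, 7.24, 8.21 and 7.32 CPM in HMF. Again every HMF library lay above every Control library. The locus rose by 1.67 ± 0.14 and the gene by 1.61 ± 0.09 on the log2 scale, and the difference of 0.06 ± 0.18 did not pass the test (limma adjusted p = 0.847).

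4 further rises were of loci near silence in Control. XLOC_022663 (chr17:84377038-84379225) measured 0.118, 0.0709, 0.122 and 0.225 CPM in Control and 1.16, 2.05, 1.70 and 3.90 CPM in HMF, and its fitted log2 fold change of 3.95 ± 0.51 rests on few Control counts. XLOC_011646 (chr12:35793510-35795411) went from 0.251 ± 0.15 to 1.92 ± 1.14 CPM, with its lowest HMF value at 0.92 and its highest Control value at 0.426. Both loci passed the count filter only through the HMF libraries, so higher values there were built in, and the HMF libraries spread over a wide range. The other pair lies on unplaced scaffolds. XLOC_051759 (GL456212.1:97233-97639) rose from 0.299 ± 0.177 to 3.29 ± 0.331 CPM, and XLOC_051743 (GL456211.1:78703-83372) from 0.412 ± 0.187 to 2.98 ± 0.608 CPM, with log2 fold changes of 3.40 ± 0.30 and 2.83 ± 0.31. In both loci the highest Control count was 10, so the Control libraries alone did not meet the filter. A neighbour of XLOC_051759 on the same scaffold, XLOC_051757, lies 1182 bases away and rose by 2.43. ENSMUSG00000079190, a row without a symbol on GL456211.1, rose by 2.62 ± 0.46. XLOC_051757 and ENSMUSG00000079190 passed the filter only through the HMF libraries, so higher values there were built in. Of 13 tested loci on sequences that hold no gene with a symbol, 5 were called, beside 11.7% of all tested loci and 26.4% of all rows. 3 of them are the rises of XLOC_051759, XLOC_051743 and XLOC_051757, which were tested because of their HMF counts. The 2 others fell, XLOC_051849 (-0.95 ± 0.09) and XLOC_051814 (-0.55 ± 0.14). XLOC_051814 ends at base 52189 of JH584304.1. ENSMUSG00000095041, a row without a symbol that begins at base 52190, also fell (-0.44 ± 0.14, edgeR adjusted p = 0.0428).

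XLOC_006154 (chr10:61026663-61029768), 2043 bases downstream of Tbata, completed the 8 largest rises among changed loci with separate groups and an average log2 CPM of at least 0, from 1.73 ± 0.159 to 6.99 ± 0.865 CPM (log2 fold change 2.02 ± 0.15, edgeR adjusted p = 4.25e-06). Tbata had almost no reads in either group, at 0.0293 and 0.0659 CPM. Among more abundant loci, XLOC_027940 and XLOC_021967, named here after their values were seen, had the highest levels of all that rose. XLOC_027940 (chr2:75468679-75473219) had 49 to 60 CPM in Control and 111 to 183 CPM in HMF, a log2 fold change of 1.38 ± 0.14. XLOC_021967 (chr17:35215690-35219375), 588 bases upstream of Vars on the opposite strand, had 90.9 to 116 and 161 to 244 CPM and rose by 0.95 ± 0.12, and Vars, a valine tRNA synthetase, rose by 0.52 ± 0.13.

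**Figure D2:**
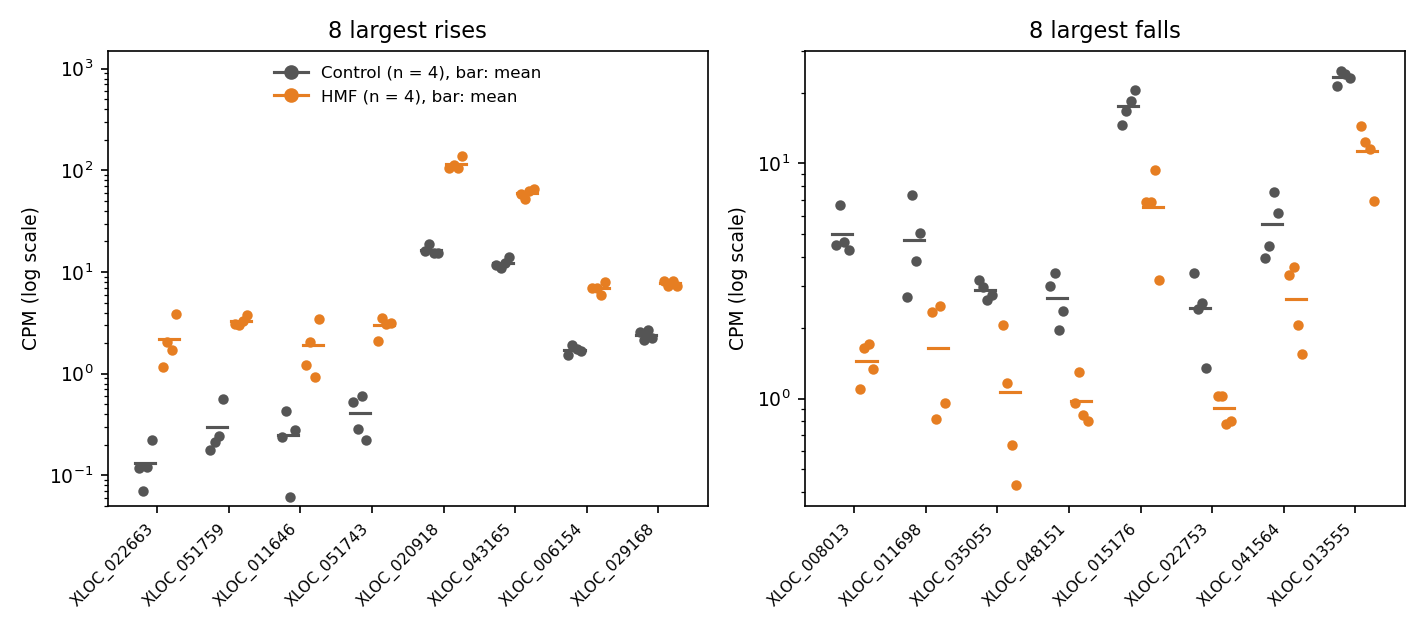
CPM on a log scale in each of the 4 Control and 4 HMF libraries, with the group mean as a bar, for the 8 strongest rises and 8 strongest falls of changed loci with an average log2 CPM of at least 0 and groups that do not overlap. XLOC_020918 and XLOC_043165 combine high levels with tight groups, while the rises from below 1 CPM and most falls spread more widely.

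Falls were smaller than rises, with a median log2 fold change of -0.68 against 1.05 among called loci. XLOC_008013 fell the most among changed loci with an average log2 CPM of at least 0. This spliced locus (chr11:52234635-52249577) begins 2110 bases upstream of Vdac1, the main pore of the outer mitochondrial membrane, on the opposite strand. It measured 4.48, 6.67, 4.63 and 4.27 CPM in Control and 1.09, 1.64, 1.70 and 1.34 CPM in HMF. Control 2 stood above the other Control libraries, and all HMF values were lower than all Control values (log2 fold change -1.79 ± 0.21, edgeR adjusted p = 1.12e-04). Vdac1 did not pass the test (-0.17 ± 0.08), and the difference between locus and gene did (-1.60 ± 0.25, limma adjusted p = 3.75e-04).

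Beside Ankle1, an endonuclease that cuts branched DNA, XLOC_048151 (chr8:71864251-71869772, 1703 bases downstream, opposite strand) measured 3.01, 3.40, 1.95 and 2.36 CPM in Control and 0.958, 1.30, 0.849 and 0.801 CPM in HMF. The locus fell by 1.45 ± 0.25 and the gene by 2.46 ± 0.19 on the log2 scale, and the gene fell further (difference 1.05 ± 0.25, limma adjusted p = 0.00873). XLOC_011698 (chr12:102235837-102238741) lies 2487 bases downstream of Slc24a4, a potassium-dependent sodium and calcium exchanger. It measured 2.71, 7.31, 3.84 and 5.06 CPM in Control and 2.33, 0.819, 2.48 and 0.961 CPM in HMF, so the 2 groups came close to overlapping. Locus and gene fell by 1.53 ± 0.39 and 1.43 ± 0.23. XLOC_035055 (chr4:44118195-44119910), 1983 bases upstream of the pseudogene Ptma-ps2, went from 2.88 ± 0.25 to 1.07 ± 0.725 CPM and the pseudogene from 2.48 to 1.22 CPM. XLOC_035055 lies 739 bases from XLOC_032511, which also fell (-0.90).

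The other 4 of the 8 largest falls among loci with separate groups and an average log2 CPM of at least 0 had no nearest gene that was called. Gm19097 beside XLOC_015176 and 5S_rRNA beside XLOC_041564 had too few counts to be tested. XLOC_015176 (chr14:61511422-61514187) had 14.6 to 20.6 CPM in Control and 3.20 to 9.34 CPM in HMF (log2 fold change -1.44 ± 0.25). XLOC_013555 (chr13:56838098-56841649), 9174 bases upstream of Smad5, a signal transducer of bone morphogenetic proteins, had 21.2 to 24.6 and 6.94 to 14.4 CPM (-1.05 ± 0.18), and Smad5 did not pass the test (-0.20 ± 0.08). In both of these loci HMF 4 was the lowest library. XLOC_022753 on chromosome 18, near the cell cycle gene Cables1, fell by 1.42 ± 0.30 on the log2 scale. XLOC_041564 (chr6:89212772-89217874) went from 5.53 ± 1.64 to 2.64 ± 1.0 CPM (-1.08 ± 0.29, edgeR adjusted p = 0.0178). The call on XLOC_041564 was lost without Control 3 (adjusted p = 0.0562) or without HMF 3 (adjusted p = 0.0537).

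Loci of 8 to 9 kb rose more often than loci of any other length with more than 2 tested members. This length class was singled out after the values were seen, so it is a description. Of 14 such loci 13 were tested, and 8 rose and 1 fell (69.2% called, median log2 fold change 0.81). Of all rows tested, 26.4% were called and 13.6% rose. In the other 1 kb classes from below 1 kb up to 8 kb, 7.51% to 16.9% of loci were called, with medians between -0.24 and -0.15. Of 15 tested loci of 10 kb or more, 3 rose and 1 fell (26.7% called, median 0.24). The 8 loci that rose were 8346 to 8850 bases long, had an assigned strand, lay on 6 chromosomes, and 7 of them were of 1 interval. The median count of the tested loci in this class was 274 per library, and the share of calls was higher at higher levels over all loci. It was 31.2% at a log2 CPM of 3 to 4 and 56.5% at 4 to 5. The sequences of these loci were not used here, so whether they resemble each other or share reads was not tested.

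The most even rise of this class was in XLOC_023514 on chromosome 18, which measured 12, 12.6, 12.5 and 11.7 CPM in Control and 30.7, 32.3, 29.4 and 36.1 CPM in HMF (log2 fold change 1.40 ± 0.09, edgeR adjusted p = 7.48e-07). Its neighbour Rprd1a, which binds the tail of RNA polymerase II, did not pass the test (0.16 ± 0.08), and the difference did (1.23 ± 0.12, limma adjusted p = 7.78e-06). XLOC_005067 (chr10:26803027-26811372), 8383 bases downstream of Arhgap18, measured 7.08, 7.38, 5.61 and 4.55 CPM in Control and 11.4, 14.2, 11 and 17.3 CPM in HMF. It rose by 1.14 ± 0.19 while Arhgap18 fell by 0.64 ± 0.11 (difference 1.77 ± 0.22, limma adjusted p = 5.50e-05). XLOC_003577 (chr10:7424177-7432907) lies 539 bases upstream of Ulbp1, which encodes a stress ligand for the killer cell receptor NKG2D. It measured 14.1, 14.9, 12 and 12.6 CPM in Control and 24.8, 27.1, 23.5 and 32.7 CPM in HMF. Both rose, the locus by 1.02 ± 0.12 and Ulbp1 by 1.60 ± 0.18.

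The other 5 rises of this length were XLOC_012804 (0.97), XLOC_017441 (0.90), XLOC_004406 (0.87), XLOC_040446 (0.81) and XLOC_032864 (0.67), as log2 fold changes. In 6 of the 8 the groups did not overlap, and XLOC_040446 and XLOC_032864 were the exceptions. HMF 4 was the highest library in 6 of the 8. That library was highest in 58.8% of all loci that rose and in 58.9% of all rows that rose. Without HMF 4, 7 of the 8 to 9 kb loci were called as rises, and without Control 1, Control 2 and HMF 4 together 8 were. XLOC_007865, the single fall, is spliced and changed by -0.36 ± 0.09. XLOC_019870, XLOC_024057, XLOC_029687 and XLOC_035065 did not pass the test.

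**Figure D3:**
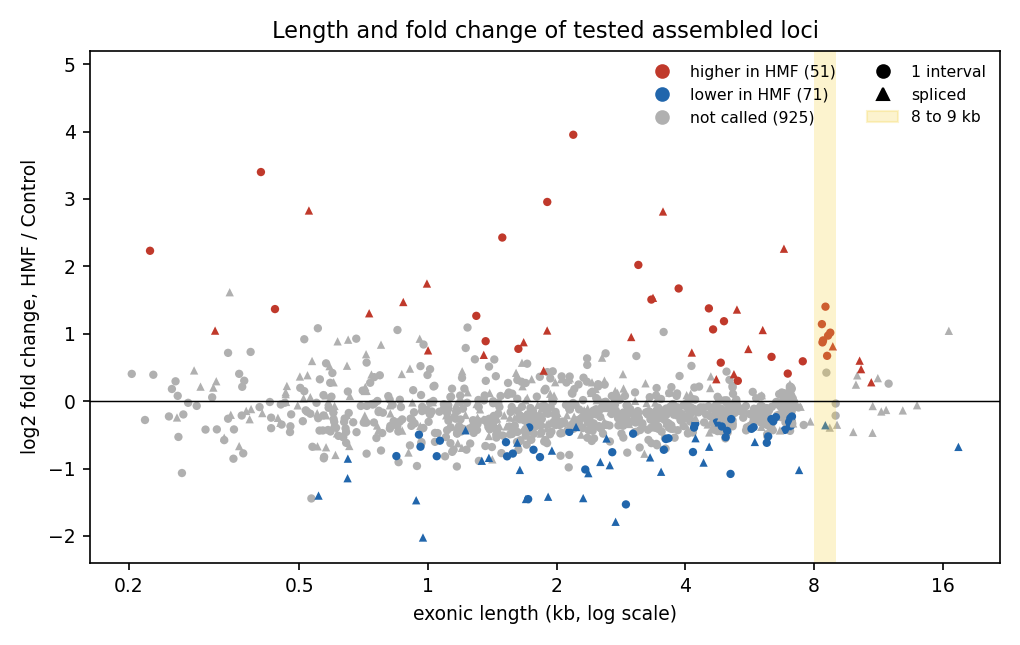
Log2 fold change of HMF over Control against exonic length in kb (log scale) for the tested assembled loci, with circles for loci of 1 interval, triangles for spliced loci, colours for the edgeR call and a band over 8 to 9 kb. The band holds 8 rises and 1 fall among 13 loci, while the classes from below 1 kb up to 8 kb have medians below 0.

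Where a changed locus lay within 10 kb of a tested gene, that gene often changed in the same direction. Of 48 such loci, the neighbour moved the same way for 21 (43.8%), moved the opposite way for 4 and was not called for 23. For rows with a symbol and a neighbour that does not overlap, the same count was 243 of 980 (24.8%). This is a description, since neighbours share libraries and may share reads. Without HMF 2 the count of same-way neighbours was 13 in place of 21. Among loci on the opposite strand from their neighbour, the neighbour within 10 kb moved the same way for 13 of 25. For those upstream on the opposite strand, the place of divergent transcripts, it did so for 7 of 13. On the same strand it did so for 5 of 12. Within 1 kb these counts were 11 of 17, 6 of 8 and 1 of 4. Across the 222 pairs within 10 kb the log2 fold changes of locus and gene had a Pearson coefficient of 0.41 and a Spearman coefficient of 0.34, over pairs that share all 8 libraries.

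The 9 rises with a rising neighbour lay beside Trim12a, Nmi, Tnfrsf14, Ulbp1, Perm1, D5Ertd579e, Vars, Herc3 and Rnf41. The locus beside Perm1, XLOC_035018, rose by 1.47 ± 0.25, more than the gene (0.71 ± 0.15, limma adjusted p of the difference = 0.0243). The 12 falls with a falling neighbour lay beside Ankle1, Slc24a4, Ptma-ps2, Gm38534, Gm12503, Gm13479, Olfr543, Tyr, Optc, Rad18, Fam120a and Eefsec. XLOC_001090, the longest tested locus at 17407 bases, lies 805 bases from Optc. It measured 78.8, 73.0, 82.1 and 86.0 CPM in Control and 61.0, 48.3, 55.7 and 35.2 CPM in HMF, lower in every HMF library (-0.68 ± 0.14), and Optc fell by 0.64 ± 0.14. The 4 pairs that moved in opposite directions were XLOC_035127 with Fbxo42, XLOC_029141 with Ier5l, XLOC_046589 with Tacc1 and XLOC_005067 with Arhgap18.

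Of 8 lists of genes, which were chosen with earlier results of these data known, 3 had tested loci within 10 kb of a member. Over all rows tested, 13.6% rose and 12.8% fell. In the interferon list, 102 of 105 tested genes rose and 1 fell, and 4 tested loci lay beside a member. 2 of these rose, XLOC_043165 beside Trim12a and XLOC_029168 beside Nmi. XLOC_041100, 12 bases upstream of Usp18 on the opposite strand, measured 0.354, 1.42, 0.488 and 0.281 CPM in Control and 0.547, 0.956, 0.779 and 1.17 CPM in HMF, with overlapping groups (0.52 ± 0.48, edgeR adjusted p = 0.469). Usp18, which removes ISG15 from proteins, rose by 1.97 ± 0.08, but the difference did not pass the test (limma adjusted p = 0.0683). XLOC_009046 beside Lgals3bp did not pass the test (0.42 ± 0.20), and Lgals3bp rose by 0.60 ± 0.09. In the list of G2 and mitosis, in which all 52 tested genes fell, the locus beside Ankle1 fell.

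The pigmentation list, with 10 of 20 tested genes down and none up, had the locus XLOC_042935 (chr7:87142750-87156827). It is spliced, runs on the opposite strand from Tyr, the gene of tyrosinase, and begins 30 bases upstream of it. It measured 14.6, 16.5, 12.9 and 15.1 CPM in Control and 12.9, 7.99, 10.8 and 7.26 CPM in HMF, so HMF 1 reached the lowest Control library. Locus and gene had nearly the same log2 fold change, -0.61 ± 0.17 and -0.65 ± 0.19 (edgeR adjusted p = 0.023 and 0.0284). The call on XLOC_042935 was lost without Control 2, Control 4 or HMF 2 (adjusted p = 0.0615, 0.0555 and 0.0726). It was also lost without Control 1, Control 2 and HMF 4 together (adjusted p = 0.0649).

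A locus and its neighbour could also part. The fold change of the locus differed from that of its nearest gene in 48 of 308 testable pairs (15.6%, limma on the log2 ratio of counts), against 21.2% of all 7812 pairs of the table. The locus lay above its gene in 20 pairs and below it in 28. Besides Rprd1a, Arhgap18 and Vdac1, the smallest adjusted p-values were at Usp25 and Fbxo42. XLOC_019291 (chr16:76913847-76917231) begins 179 bases downstream of Usp25, a deubiquitinating enzyme, on the same strand. It measured 3.89, 5.53, 3.84 and 4.21 CPM in Control and 3.35, 3.14, 3.68 and 3.15 CPM in HMF (-0.39 ± 0.16, edgeR adjusted p = 0.103), while Usp25 rose from 81.6 ± 3.41 to 175 ± 13.0 CPM (1.10 ± 0.07). The difference was -1.47 ± 0.19 (limma adjusted p = 7.31e-05).

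XLOC_035127 (chr4:140934396-140936224), 3023 bases downstream of Fbxo42, a substrate receptor of a ubiquitin ligase, measured 6.73, 6.10, 5.42 and 5.0 CPM in Control and 3.08, 2.73, 2.97 and 4.17 CPM in HMF. It fell by 0.83 ± 0.17 with no overlap, while Fbxo42 rose by 0.42 ± 0.08 (difference -1.27 ± 0.17, limma adjusted p = 1.15e-04). The pair farthest from equality, named after its values were seen, was XLOC_025405 and Mpeg1, a pore-forming gene of macrophages. Mpeg1 went from 0.137 to 1.71 CPM, and the locus 6206 bases upstream did not pass the test (-0.44 ± 0.17). At this Control level Mpeg1 passed the count filter only through the HMF libraries. Its higher values there, and with them its distance from the locus, were thus built in. Of the 4 macrophage markers given above, Cd68 was also higher in every HMF library. Adgre1 was at 0 throughout, and Csf1r and Ptprc were at most 0.273 and 0.137 CPM, with overlapping groups. Whether macrophages were present was not tested.

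**Figure D4:**
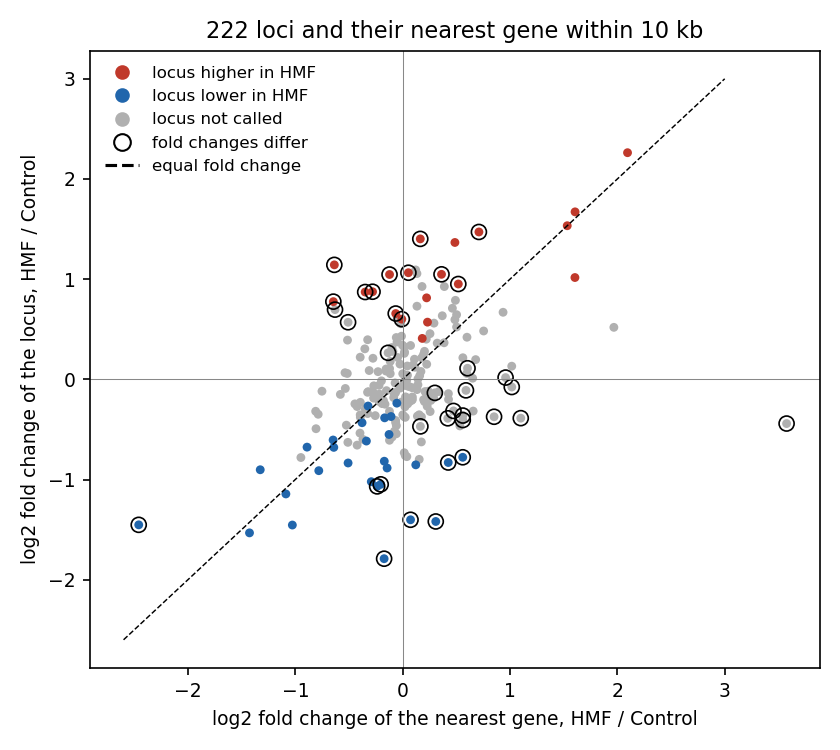
Log2 fold change of each tested locus (vertical axis) against that of its nearest gene (horizontal axis) for the 222 pairs within 10 kb, coloured by the call on the locus, with a ring where the 2 fold changes differ (limma) and a dashed line of equality. XLOC_043165 with Trim12a lies near the line at the upper right, and the point at the far right is XLOC_025405 with Mpeg1. Mpeg1 passed the count filter only through the HMF libraries, so its rise was built in.

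The most abundant loci were taken by rank, and their levels ran on into those of other loci. XLOC_011699, which is among them, averaged 446 CPM in Control and 328 CPM in HMF. XLOC_035108, which is not, averaged 379 CPM in Control and 324 CPM in HMF. XLOC_003523 (chr1:170772540-170773655) held more counts than any other assembled locus. It measured 3266, 3397, 2885 and 3056 CPM in Control and 2905, 3002, 2679 and 3490 CPM in HMF, with overlapping groups (-0.06 ± 0.09, edgeR adjusted p = 0.657). Of the next 5 loci by level, 3 were short. XLOC_051850 fills bases 1 to 592 of scaffold MU069435.1 and measured 1237, 1351, 568 and 732 CPM in Control and 523, 609, 606 and 1106 CPM in HMF. XLOC_032104 (chr3:5925391-5925866, 476 bases) ranged from 381 to 916 CPM and XLOC_048776 (chr8:15569774-15570125, 352 bases) from 269.8 to 689.6 CPM.

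These 3 short loci were highest in Control 1, Control 2 and HMF 4, and so, by a narrower margin, was XLOC_003523. Rn18s, the row of the small ribosomal RNA, was highest in the same libraries, with 8325, 9380, 5119 and 6123 CPM in Control and 5378, 4904, 5041 and 7514 CPM in HMF. None of the 3 passed the test (adjusted p = 0.29, 0.285 and 0.361 for XLOC_051850, XLOC_032104 and XLOC_048776). Without HMF 4, XLOC_051850 and XLOC_032104 were called as falls of 0.75 on the log2 scale each (adjusted p = 0.0406 and 0.0458). Over all tested loci, 31 (2.96%) had their 3 highest values in these libraries, against 4.73% of all rows. None of the 31 was called, but this was close to built in, since groups overlap in any row of this pattern. Without these 3 libraries, 69 loci rose and 53 fell, in place of 51 and 71, and 88 of the 122 calls were shared.

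The other 2 of the 6 most abundant loci were long and even across libraries. XLOC_018671 (chr15:72953285-72959801), 2440 bases upstream of Chrac1, measured 562, 555, 526 and 517 CPM in Control and 445, 445, 469 and 473 CPM in HMF. It was lower in every HMF library by a small amount (-0.24 ± 0.06, edgeR adjusted p = 0.0101). XLOC_011699 (chr12:108045550-108050559) measured 444, 484, 426 and 428 CPM in Control and 338, 319, 324 and 331 CPM in HMF. The gap between its groups was wider than the spread in either (-0.44 ± 0.06, edgeR adjusted p = 2.91e-04). Its nearest gene Setd3, a histidine methyltransferase of actin 22131 bases away, did not pass the test (-0.13 ± 0.06), and the difference did (-0.30 ± 0.08, limma adjusted p = 0.0188).

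**Figure D5:**
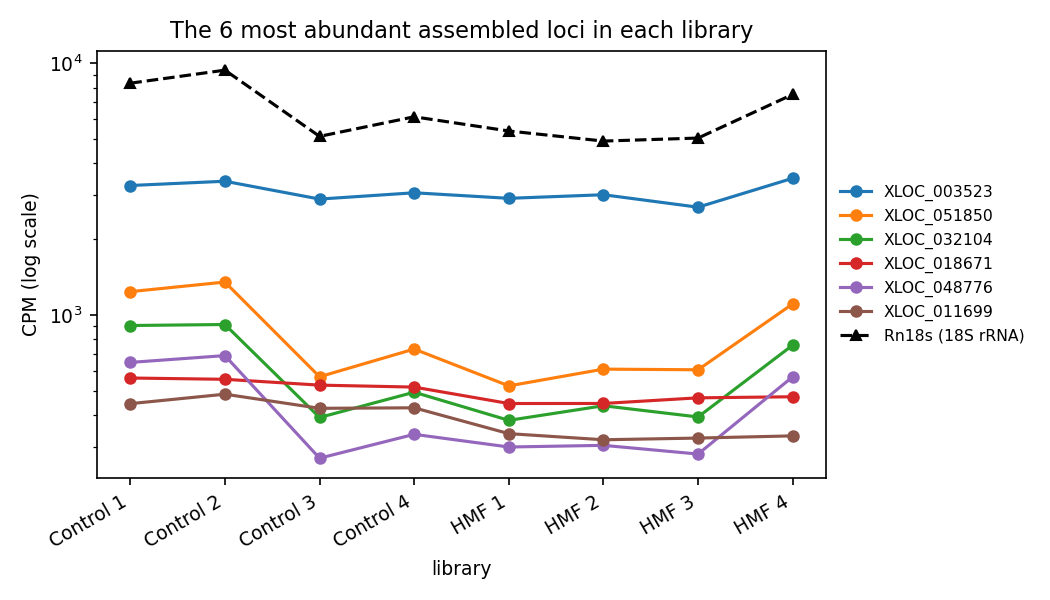
CPM on a log scale in each of the 8 libraries for the 6 most abundant assembled loci and for Rn18s, joined by lines for each row. XLOC_051850, XLOC_032104 and XLOC_048776 are high in Control 1, Control 2 and HMF 4, as is Rn18s, whereas XLOC_018671 and XLOC_011699 are lower in every HMF library.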

How the data were processed

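Polyadenylated RNA from 8 libraries was sequenced, per the labels' protocols. The deposited table holds unnormalized read counts per row, and FPKM values that the authors made from the same counts. The submitters' processing notes name Trimmomatic, HISAT2 2.0.5, HTSeq, DESeq2 and mm10. For the assembler of the loci, the strand setting and the treatment of multi-mapping reads, the sources used here give nothing.

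Libraries were grouped by title. Counts were scaled with TMM, rows with 10 or more counts in at least 4 of 8 libraries were kept, and 15273 rows were tested together with edgeR 4.0.16 (quasi-likelihood, group only, Benjamini-Hochberg, R 4.3.3). Standard errors are the log2 fold change over the root of the F statistic. Exonic lengths were recovered from counts and FPKM. Each row was paired with its nearest row that has a symbol, and log2 count ratios (0.5 added) were tested with limma 3.58.1 over all pairs. Alternatives were other scalings and filters, DESeq2 1.42.0, limma on voom weights or log2 FPKM, and left-out libraries. The scripts were tested on simulated data.

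Members, lists and rules were chosen with earlier results of these data known. Loci were named if they were among the 8 largest separated rises or falls with an average log2 CPM of at least 0, the 6 most abundant, the 4 smallest adjusted p-values, the 5 smallest for a difference from the neighbour, or a changed locus beside a listed gene.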

Additional observations from a re-analysis of the deposited data

Results flagged for a closer look

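In 58 groups of 4 libraries, 1 library was compared with the other 3 by the gap to its nearest value over the whole range, and 5 groups had a gap large enough to be marked. Chance marks about 1 group in 20. The gap was 0.856 for XLOC_032104, 0.919 for XLOC_048776 and 0.852 for XLOC_051850 among the HMF libraries, and 0.904 for the share of counts in assembled loci among the HMF libraries. HMF 4 was the high library in each of these 4 groups. For XLOC_008013, the locus upstream of Vdac1, Control 2 was the high library, with a gap of 0.849.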

How the results depend on the processing

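Neither a named locus nor the share of counts changed direction under an alternative that was run, but the balance of rises and falls did. The 51 rises and 71 falls became 35 and 16 at an adjusted p below 0.01, 43 and 25 with a replicate block, and 69 and 53 without Control 1, Control 2 and HMF 4 together, and rises also outnumbered falls without Control 1 (52 and 50), Control 2 (61 and 46), Control 3 (44 and 41), HMF 2 (42 and 37) or HMF 3 (47 and 46). The count of changed loci was 122. It was 51 at an adjusted p below 0.01, 68 with a replicate block, and 79 to 111 when 1 library was left out. Falls numbered 108 on log2(FPKM + 0.1), 117 on log2(FPKM + 1), 16 at an adjusted p below 0.01, 25 with the replicate block and 37 to 63 with 1 library left out, and rises 41 to 61. Replicate numbers did not pair the libraries (correlations of deviations -0.25, -0.07, 0.21 and -0.31). The difference in the share of counts was -0.0444 percentage points without the 5 most abundant loci (exact permutation p = 0.0286) and -0.186 to -0.0905 with 1 library left out. Neighbours that moved the same way numbered 12 within 1 kb, 13 with the replicate block and 13 to 20 with 1 library left out, and the pairs whose fold changes differed numbered 35 to 45 then, in place of 48. DESeq2 called 108 loci, 102 of them shared. Of 588 values of named loci under these settings, 571 kept their call, 15 lost it and 2 gained it. The median tested locus had 31.5 counts per library. At the same level, loci were called less often than rows with a symbol up to a log2 CPM of 3 (5.59% against 13.8% from 0 to 1, 12.4% against 24.9% from 2 to 3) and more often above it (57.1% against 33.6% at 5 or more), and the cause was not tested.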
